A study of Mus musculus with 6 samples.

Results

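The miR-200 family of the mouse renal cortex was described from 8 mature miRNAs, chosen by name from the 1900 mature names of each count table: mmu-miR-200a-3p, mmu-miR-200a-5p, mmu-miR-200b-3p, mmu-miR-200b-5p, mmu-miR-141-3p, mmu-miR-141-5p, mmu-miR-200c-3p and mmu-miR-429-3p. The prefix for mouse is left out from here on. All 8 had 1 row per table, so the merging of repeated rows did not touch their counts. The libraries came from small RNA of the renal cortex, taken from 6 mice of strain C57BL/6 in 2 groups of 3. The diet-only mice were fed for 8 weeks on a steatohepatitis-inducing diet rich in fat and cholesterol and containing bile salt. The tofogliflozin mice received that diet with tofogliflozin, an inhibitor of the glucose transporter SGLT2 of the proximal tubule, for the same 8 weeks. Every mouse had the diet, so no value here compares the diet with normal chow. Age, sex and drug dose were not given in the sources used here.

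miR-200 miRNAs are typical of epithelial cells. Their 3p arms repress Zeb1 and Zeb2, transcription factors that silence E-cadherin during epithelial-mesenchymal transition, and Zeb factors in turn repress both miR-200 loci. In the kidney the family is found in the epithelium of tubules and collecting ducts and has been studied in fibrosis, where TGF-β lowers or raises it depending on the cell type.

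A miRNA finds its targets mainly through its seed, bases 2 to 8 from the 5′ end, set in capitals in the RefSeq sequences of build GRCm38.p6 below. The 5 3p arms are shown first because the family's seed groups are defined by them, and the 3 5p arms follow.
miR-200b-3p: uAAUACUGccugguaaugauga
miR-200c-3p: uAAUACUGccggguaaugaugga
miR-429-3p: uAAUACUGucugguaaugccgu
miR-200a-3p: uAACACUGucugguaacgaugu
miR-141-3p: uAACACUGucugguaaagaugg
miR-200a-5p: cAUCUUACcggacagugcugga
miR-200b-5p: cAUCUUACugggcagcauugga
miR-141-5p: cAUCUUCCagugcaguguugga

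3 of the 3p arms had the seed AAUACUG and 2 the seed AACACUG, a difference of 1 base (U4C from miR-200b-3p to miR-200a-3p, positions counted from 1 at the 5′ end). Over the first 22 bases the 5 3p arms were identical at 15 positions and varied at 7. miR-200b-3p and miR-200c-3p differed at 2 positions (U11G and A22G), as did miR-200a-3p and miR-141-3p (C17A and U22G), so the nearest relative of each of these 4 lay in the other genomic cluster. miR-200b-3p differed from each of miR-200a-3p, miR-429-3p and miR-141-3p at 4 positions, and C9U was among them every time. Among the 5p arms, miR-200a-5p and miR-200b-5p shared a seed, and miR-141-5p did not (A7C from miR-200a-5p). No pair of members had the same sequence. How reads with a mismatch were assigned was not given in the sources used here, and exchange of reads between the closest members was not tested.

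The hairpins form 2 clusters. In build GRCm38 (mm10), with GENCODE M21 annotation, Mir200b (chr4:156055681-156055750), Mir200a (chr4:156054896-156054985) and Mir429 (chr4:156053905-156053987) lie within 1846 bases on the minus strand of chromosome 4, in an intron of Ttll10. Mir429 also lies in an exon of the noncoding transcript Gm13648, and the other two are in its intron. Mir200c (chr6:124718322-124718390) and Mir141 (chr6:124717914-124717985) lie within 477 bases on the minus strand of chromosome 6, in an intron of the noncoding transcript Gm15884. Part of Mir141 overlaps an exon of Gm29008.

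Libraries held 6643638 to 22886200 counts with repeated rows merged, fewest in tofogliflozin replicate 2. That library stood apart: 66.1% of the 460 tested miRNAs lay outside the range of the other 5 libraries in it, against 15% to 40.9% in each of the others. The 6 kidney tubule miRNAs, miR-192-5p and miR-204-5p among them, were summed in CPM (counts scaled to a common library size with TMM factors). The sums were 160754 to 171006 CPM in diet-only mice and 148378 to 172363 CPM with tofogliflozin. Most of these sums was miR-10a-5p (means of 87757 CPM in diet-only and 85836 CPM in tofogliflozin mice) and miR-192-5p (52341 and 50693 CPM). miR-204-5p was a small part of the sums, at 284, 291 and 250 CPM in diet-only mice and 462, 492 and 373 CPM with tofogliflozin. Its groups did not overlap, with a log2 fold change of 0.69 ± 0.15 (SE, tofogliflozin over diet only, unadjusted p = 0.00168, adjusted p = 0.387 by edgeR). Of the 6, 2 had a log2 fold change above 0 and 4 below, against 226 and 234 of all 460 tested. The 7 leukocyte miRNAs summed to 1572 to 2809 CPM in diet-only mice and to 1332 to 1498 CPM with tofogliflozin. Most of that sum was miR-146a-5p, at 1695, 2616 and 1427 CPM in diet-only mice and 1363, 1232 and 1202 CPM with tofogliflozin. It was the 1 of the 7 whose groups did not overlap, where 12% of all 460 tested did not. Its log2 fold change was -0.60 ± 0.22 (SE, unadjusted p = 0.0255, adjusted p = 0.854 by edgeR). By log2 fold change, 1 of the 7 was above 0 and 6 below, against 226 and 234 of all 460. None of these 7 was at 0. Their part in the results below was not tested. In tofogliflozin replicate 2 the summed levels lay outside the range of the other 5 libraries for the 6 smooth muscle and fibroblast miRNAs (32807 CPM against 54101 to 60084), the 3 endothelial miRNAs (16203 against 18880 to 22979), the 2 tested erythroid miRNAs (223 against 46.4 to 164) and the liver miRNA miR-122-5p (245 against 40.7 to 78.6). It also held the highest sums of the kidney tubule miRNAs (172363 against 148378 to 171006) and of the 12 miRNAs described in epithelial-mesenchymal transition (186341 against 138887 to 169992), lists that share miR-30a-5p and miR-192-5p. Most of the smooth muscle and fibroblast sum was miR-143-3p, with means of 55168 CPM in diet-only and 47735 CPM in tofogliflozin mice. Most of the endothelial sum was miR-126a-3p. Single miRNAs did not all follow these sums in tofogliflozin replicate 2. Of smooth muscle and fibroblasts, miR-145a-5p was highest there (423 CPM against 316 to 363) and miR-214-3p inside the range (12.8 against 11.4 to 16.1). Of endothelium, miR-139-5p was highest (917 against 622 to 821) and miR-126a-3p lowest (15059 against 18021 to 21967). Erythroid miR-451a lay inside the range (11.3 against 3.52 to 14.7), and miR-486-5p was highest (212 against 42.9 to 151). In whole cortex, fewer cells of a type and less RNA per cell cannot be told apart. The difference between the groups in each member and ratio is given with and without this library.

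Together the 8 members took 1.97% to 3.24% of the counts of a library. The family was led by miR-200b-3p, which held 67.4% ± 6.25 of the family's counts (SD, n = 6 libraries), followed by miR-200a-3p with 20.3% ± 4.73. miR-200b-3p ranked 18 of the 460 tested miRNAs by mean CPM, miR-200a-3p 28, miR-200c-3p 61, miR-200a-5p 67, miR-429-3p 68, miR-200b-5p 116, miR-141-3p 155 and miR-141-5p 433. Members of the same cluster differed widely in level. On chromosome 4, mean levels were 16515 ± 4775 CPM for miR-200b-3p, 4737 ± 465 CPM for miR-200a-3p and 839 ± 63.5 CPM for miR-429-3p (SD, n = 6). On chromosome 6 they were 958 ± 187 CPM for miR-200c-3p and 56.7 ± 14.9 CPM for miR-141-3p (SD, n = 6). A read stands for a whole miRNA, so these levels need no scaling by length, but ligation during library preparation depends on sequence and its part in the order was not tested.

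**Figure D1:**
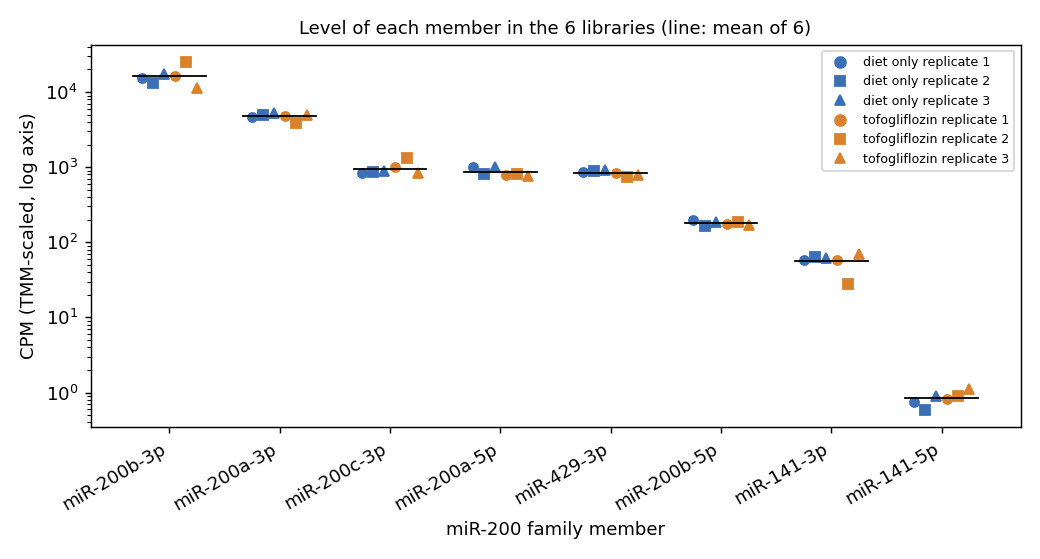
Level of each member in CPM on a log axis, in order of mean level; blue symbols are the 3 diet-only mice, orange symbols the 3 tofogliflozin mice, and the line is the mean of all 6. miR-200b-3p stands near 16515 CPM and miR-141-5p near 0.843 CPM, while the ranges of miR-200c-3p, miR-200a-5p and miR-429-3p overlap.

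The order held in every library for 5 of the 7 neighbouring pairs. miR-200b-3p exceeded miR-200a-3p by 2.30 to 6.50 times, miR-200a-3p exceeded miR-200c-3p by 2.94 to 5.97 times, miR-429-3p exceeded miR-200b-5p by 3.97 to 5.42 times, miR-200b-5p exceeded miR-141-3p by 2.43 to 6.72 times and miR-141-3p exceeded miR-141-5p by 31.0 to 107.5 times. Each was seen in 6 of 6 libraries (exact 2-sided sign-flip permutation p = 0.031, the smallest that 6 libraries allow, 0.0438 adjusted over the 7 pairs). The pairs were set by the order of mean level in these same libraries, so these p-values are no independent test of that order. The middle of the order was not resolved. miR-200c-3p was above miR-200a-5p in 4 of 6 libraries (exact permutation p = 0.46875, adjusted p = 0.53125), and miR-200a-5p was above miR-429-3p in 3 of 6 (exact permutation p = 0.53125, adjusted p = 0.53125), with ranges that overlapped.

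Among members with the seed AAUACUG, miR-200b-3p stood at 15555, 13293 and 17396 CPM in diet-only replicates 1, 2 and 3 and at 16469, 25130 and 11249 CPM in tofogliflozin replicates 1, 2 and 3. The tofogliflozin mice held both the highest and the lowest value, and the diet-only mice lay between them. miR-200c-3p, which shares that seed from the other cluster, was at 840, 852 and 877 CPM in diet-only mice and at 1013, 1317 and 848 CPM with tofogliflozin. Its diet-only values were close together, and tofogliflozin replicate 3 fell among them while the other two tofogliflozin mice were higher. miR-429-3p was at 853, 885 and 917 CPM in diet-only mice and at 840, 739 and 799 CPM with tofogliflozin. All 3 tofogliflozin values of miR-429-3p were below all 3 diet-only values, by 13.2 CPM between the nearest mice.

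Among members with the seed AACACUG, miR-200a-3p was at 4707, 4943 and 5236 CPM in diet-only mice and at 4771, 3866 and 4899 CPM with tofogliflozin. The groups overlapped, and tofogliflozin replicate 2 was the lowest of the 6. miR-141-3p was at 57.8, 62.9 and 62.2 CPM in diet-only mice and at 59.0, 27.7 and 70.6 CPM with tofogliflozin. Here tofogliflozin replicate 2 was again the lowest and tofogliflozin replicate 3 the highest of the 6.

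The 5p arms are the partner strands, mostly discarded when the duplex is loaded. miR-200a-5p was at 999, 821 and 1009 CPM in diet-only mice and at 790, 811 and 765 CPM with tofogliflozin. The groups did not overlap, although diet-only replicate 2 lay only 9.10 CPM above tofogliflozin replicate 2. miR-200b-5p was at 198, 163 and 189 CPM in diet-only mice and at 175, 186 and 171 CPM with tofogliflozin, with the tofogliflozin values inside the diet-only range. miR-141-5p rested on 6 to 20 counts a library, or 0.748, 0.585 and 0.910 CPM in diet-only mice and 0.813, 0.895 and 1.11 CPM with tofogliflozin. In tofogliflozin replicate 2 its 6 counts have an exact Poisson 95% interval of 2.20 to 13.1 counts, or 0.331 to 1.97 CPM before TMM scaling, and the values of the other 5 libraries lay inside it. Of the arms outside the 8 members, miR-429-5p had 0 counts in all 6 libraries, which allows up to 0.131 to 0.452 CPM at 3 counts, and miR-200c-5p had 3 counts in diet-only replicate 2 and 0 in the others. Intervals and limits cover counting error only, since reads without molecular identifiers are not independent molecules.

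Whether tofogliflozin changed the family was tested with edgeR's quasi-likelihood test over all 460 miRNAs that passed the filter on low counts, among them all 8 members. None of the 8 passed an adjusted p of 0.05, against 0% of all 460 tested. At an unadjusted p under 0.05 there were 0 of 8 members, against 5% of all tested. Leaving out tofogliflozin replicate 3 brought miR-200b-3p (0.46, unadjusted p = 0.0449, adjusted p = 0.313 by edgeR) and miR-200c-3p (0.47, unadjusted p = 0.0128, adjusted p = 0.268) under that unadjusted level. In that fit 75 of all 476 tested were under it. Leaving out diet-only replicate 2 brought miR-200a-5p under it (-0.31, unadjusted p = 0.0497, adjusted p = 0.988 by edgeR), in a fit with 11 of all 487 tested under it. DESeq2 called 2 of 460 and limma-voom 0, none of them a member. The log2 fold change, tofogliflozin over diet only, was above 0 for 3 members and below 0 for 5, with a median of -0.093, and over all tested it was -0.005.

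The smallest p of the family belonged to miR-200a-5p, with means of 943 ± 106 CPM in diet-only and 789 ± 23.2 CPM in tofogliflozin mice (n = 3 each, ± SD). On the log2 scale it differed by -0.26 ± 0.12 (SE, tofogliflozin minus diet only), with an unadjusted p of 0.0722 and an adjusted p of 0.854 by edgeR. Without tofogliflozin replicate 2 it was -0.28. miR-200c-3p had means of 856 ± 18.6 and 1059 ± 238 CPM (n = 3 each, ± SD). The log2 fold change was 0.31 ± 0.17 (adjusted p = 0.854 by edgeR), and 0.12 without tofogliflozin replicate 2 against 0.47 without tofogliflozin replicate 3. For miR-429-3p the means were 885 ± 32.2 and 792 ± 50.8 CPM (n = 3 each, ± SD) and the log2 fold change -0.16 ± 0.11 (adjusted p = 0.859 by edgeR), or -0.11 without tofogliflozin replicate 2. miR-429-3p and miR-200a-5p were the 2 of 8 members whose groups did not overlap, both lower with tofogliflozin, where 12% of all tested did not overlap in either direction and 6.96% were lower without overlap.

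The most abundant member, miR-200b-3p, had means of 15414 ± 2055 and 17616 ± 7011 CPM (n = 3 each, ± SD). Its log2 fold change was 0.19 ± 0.27 with a 95% interval of -0.42 to 0.81, or 0.745 to 1.75 in fold. Without tofogliflozin replicate 2 its sign turned, to -0.15, and without tofogliflozin replicate 3 it was 0.46. miR-200a-3p had means of 4962 ± 265 and 4512 ± 563 CPM (n = 3 each, ± SD) and a log2 fold change of -0.14 ± 0.12 with an interval of -0.42 to 0.15. Without tofogliflozin replicate 2 it was -0.036, and leaving out diet-only replicate 3 gave -0.087. For miR-141-3p the value was -0.21 ± 0.31, 0.091 without tofogliflozin replicate 2 and -0.46 without tofogliflozin replicate 3. miR-200b-5p was at -0.048 ± 0.13, and at -0.082 without tofogliflozin replicate 2. miR-141-5p was at 0.34 ± 0.40, with an interval of -0.60 to 1.27, or 0.661 to 2.41 in fold, and at 0.37 without tofogliflozin replicate 2.

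**Figure D2:**
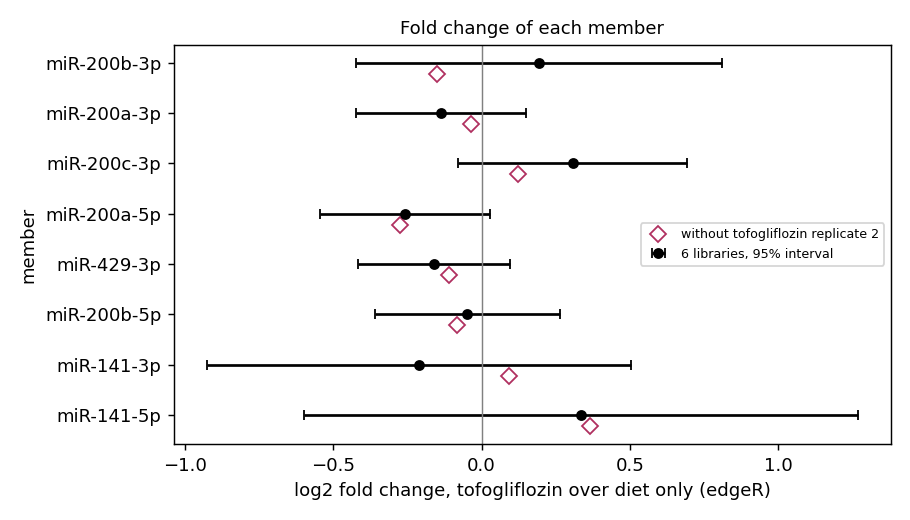
Log2 fold change of each member, tofogliflozin over diet only, from the edgeR fit; filled points with bars are all 6 libraries with 95% intervals, and open diamonds are the fit without tofogliflozin replicate 2. All 8 intervals cross 0, and the diamonds of miR-200b-3p and miR-141-3p lie on the other side of 0 from their filled points.

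The family as a sum was at 23212, 21020 and 25686 CPM in diet-only mice and at 24117, 32077 and 18803 CPM with tofogliflozin. The tofogliflozin mice again held the highest and the lowest value. The means of log2 summed CPM were 14.50 ± 0.14 and 14.58 ± 0.39 (SD, n = 3 each), a difference of 0.072 (exact 2-sided permutation p = 0.8, adjusted p = 0.9 over 7 such values). Leaving out tofogliflozin replicate 2 gave -0.13, leaving out diet-only replicate 2 gave -0.0004 and leaving out tofogliflozin replicate 3 gave 0.26. With 20 arrangements of 3 against 3 mice, the smallest p these tests can give is 0.1.

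The 2 genomic clusters were compared next, through the ratio of their 3p counts within each library, which needs no scaling between libraries. The chromosome 4 cluster held 91.3% ± 0.866 of the family's counts in its 3 3p arms and the chromosome 6 cluster 4.23% ± 0.437 in its 2 (SD, n = 6). The ratio was 23.5, 20.9 and 25.1 in diet-only mice and 20.6, 22.1 and 18.4 with tofogliflozin. It varied little between mice, and tofogliflozin replicate 2, which stood apart for single members, lay inside the diet-only range. The 2 sums were mostly miR-200b-3p and miR-200c-3p, whose own ratio there was 19.1, against 13.3 to 19.8 in the other libraries. Every other ratio of 3p arms across the clusters lay outside its range there, some toward chromosome 4 and some toward chromosome 6. So the ratio of sums does not show that the clusters kept their balance arm by arm. The mean log2 ratio of the cluster sums was 4.53 ± 0.13 and 4.35 ± 0.13 (SD, n = 3 each), a difference of -0.18 (exact permutation p = 0.2, adjusted p = 0.9), and -0.25 without tofogliflozin replicate 2 (exact permutation p = 0.2). Without tofogliflozin replicate 3 it was -0.11. Taken as means of the log2 values of the arms, so that each arm weighs the same, it was -0.041 (exact permutation p = 0.9).

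Within a seed the clusters were compared again. For the seed AAUACUG, miR-200b-3p plus miR-429-3p over miR-200c-3p was 19.5, 16.6 and 20.9 in diet-only mice and 17.1, 19.6 and 14.2 with tofogliflozin, a log2 difference of -0.17 (exact permutation p = 0.5, adjusted p = 0.9). It was -0.28 without tofogliflozin replicate 2 and -0.047 without tofogliflozin replicate 3. Leaving out a diet-only mouse gave -0.26 (replicate 2) or -0.099 (replicate 3) at the extremes. With the arms weighed equally it was -0.30 (exact permutation p = 0.1, the smallest possible). For the seed AACACUG, miR-200a-3p over miR-141-3p was 81.4, 78.6 and 84.1 in diet-only mice and 80.8, 139 and 69.4 with tofogliflozin, a log2 difference of 0.18 (exact permutation p = 0.9, adjusted p = 0.9) that was -0.12 without tofogliflozin replicate 2. It was 0.27 without tofogliflozin replicate 1 and 0.38 without tofogliflozin replicate 3. The 3 diet-only mice gave nearly the same ratio, and tofogliflozin replicate 2 alone was far above the rest.

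The seed groups set apart miRNAs with different target sets. The seed AAUACUG held 75.0% ± 5.48 of the family's counts and AACACUG 20.6% ± 4.82 (SD, n = 6). Their ratio was 3.62, 3.00 and 3.62 in diet-only mice and 3.79, 6.98 and 2.59 with tofogliflozin. The spread was again wider with tofogliflozin, with the highest and the lowest value in that group. The mean log2 ratio was 1.77 ± 0.16 and 2.03 ± 0.72 (SD, n = 3 each), a difference of 0.27 (exact permutation p = 0.7, adjusted p = 0.9) that was -0.12 without tofogliflozin replicate 2. Without tofogliflozin replicate 3 it was 0.60 (exact permutation p = 0.1, the smallest possible), and leaving out diet-only replicate 2 gave 0.18.

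Each cluster holds both seeds, so the seed ratio was also taken inside each. On chromosome 4, miR-200b-3p plus miR-429-3p over miR-200a-3p was 3.49, 2.87 and 3.50 in diet-only mice and 3.63, 6.69 and 2.46 with tofogliflozin, a log2 difference of 0.26 (exact permutation p = 0.7, adjusted p = 0.9), or -0.13 without tofogliflozin replicate 2. Without tofogliflozin replicate 3 it was 0.59 (exact permutation p = 0.1), and leaving out diet-only replicate 2 gave 0.16. With the arms weighed equally it was 0.13. On chromosome 6, miR-200c-3p over miR-141-3p was 14.5, 13.5 and 14.1 in diet-only mice and 17.2, 47.5 and 12.01 with tofogliflozin, a log2 difference of 0.61 (exact permutation p = 0.4, adjusted p = 0.9), or 0.031 without tofogliflozin replicate 2. Without tofogliflozin replicate 3 it was 1.02 (exact permutation p = 0.1). In both clusters the same mouse gave the highest ratio and tofogliflozin replicate 3 the lowest.

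**Figure D3:**
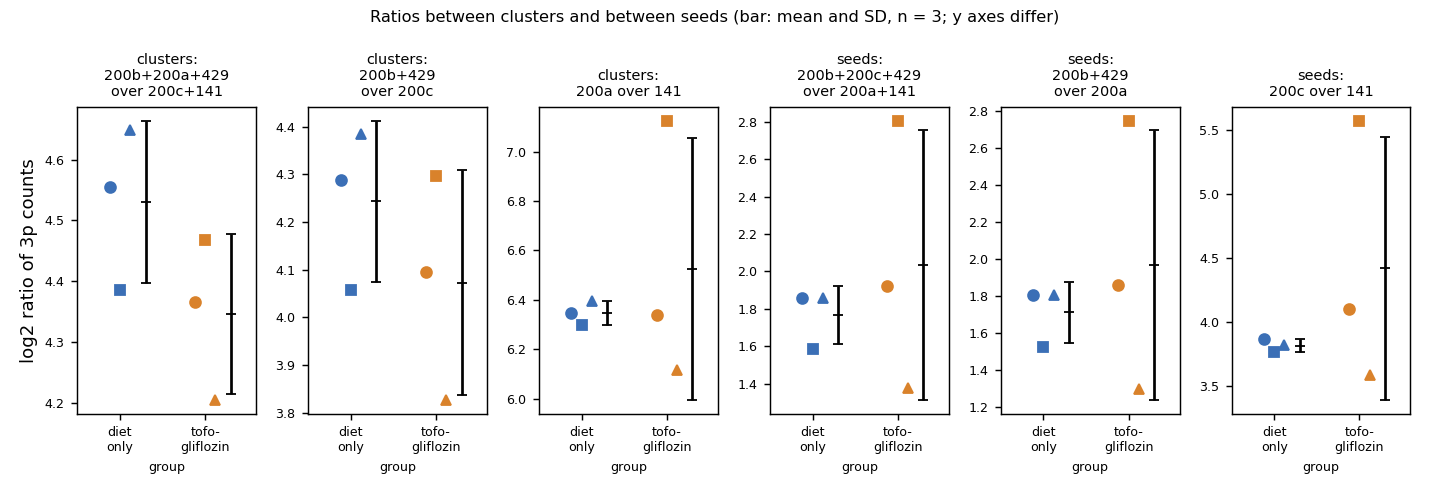
Log2 ratios of 3p counts within each library between the clusters (left 3 panels) and between the seeds (right 3 panels); circles, squares and triangles are replicates 1, 2 and 3, and bars show mean and SD of 3 mice. Tofogliflozin replicate 2 (orange square) lies within the diet-only values for the cluster ratio of all 3p arms and far above all others for the seed ratios and for miR-200a over miR-141. The y axes differ between panels.

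What set tofogliflozin replicate 2 apart was then followed through single members, as a description made after the values were seen. Against the median of the other 5 libraries, that library held 1.62 times the miR-200b-3p and 1.55 times the miR-200c-3p. It held 0.866 times the miR-429-3p, 0.789 times the miR-200a-3p and 0.446 times the miR-141-3p. All 5 of these 3p arms lay outside the range of the other 5 libraries, 2 above and 3 below. The 5p arms miR-200a-5p (0.989 times), miR-200b-5p (1.06 times) and miR-141-5p (1.10 times) lay inside it. So 5 of the 8 members lay outside, a share near the 66.1% of all 460 tested miRNAs that did so in this library. The direction did not follow the cluster, since each cluster had a 3p arm above and at least 1 below. Nor did it follow the seed, since miR-429-3p shares AAUACUG with the raised pair and was below. The raised pair, miR-200b-3p and miR-200c-3p, are the closest by sequence of those with that seed. Position 9, 1 of the 7 that vary between the 3p arms, is C in that pair and U in the 3 lowered arms. This split was read from 1 library with the values known, and a part of sequence in it was not tested.

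Of the ratios between 3p arms, only that of miR-200b-3p to miR-200c-3p lay inside the range of the other 5 libraries in tofogliflozin replicate 2, at 19.1 against 13.3 to 19.8. miR-200a-3p over miR-429-3p was 5.23 there, just below the 5.52 to 6.14 of the others. By contrast, miR-200b-3p over miR-429-3p, neighbours on chromosome 4 with 1 seed, was 34.0 against 14.1 to 19.6. miR-200c-3p over miR-429-3p was 1.78 against 0.956 to 1.21. The lowered arms did not move as 1 group: miR-200a-3p over miR-141-3p was 139 against 69.4 to 84.1, and miR-429-3p over miR-141-3p was 26.6 against 11.3 to 14.8. These are log2 shifts from the median of the other libraries of 0.79 and 0.90, beside 0.90 and 0.86 for miR-200b-3p and miR-200c-3p over miR-429-3p. This library had the fewest counts of the 6, and the part of depth, of RNA from other cells or of library preparation in its pattern was not tested.

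**Figure D4:**
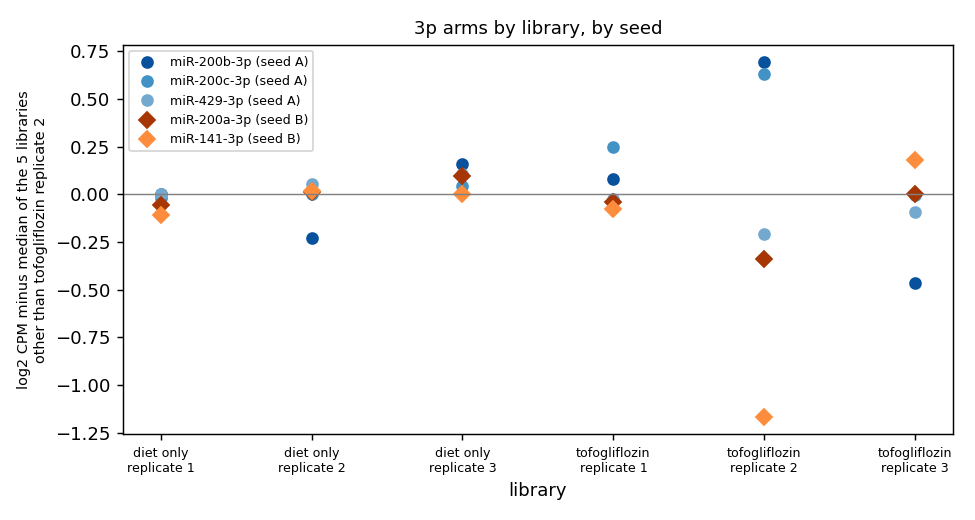
Log2 level of the 5 3p arms in each library, relative to the median of the 5 libraries other than tofogliflozin replicate 2; blue circles have the seed AAUACUG (seed A) and red or orange diamonds the seed AACACUG (seed B). In tofogliflozin replicate 2, miR-200b-3p and miR-200c-3p stand at 0.69 and 0.63, and miR-429-3p, miR-200a-3p and miR-141-3p at -0.21, -0.34 and -1.17.

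The arms of a hairpin were used very unequally. The 5p share was largest in miR-200a, and the ranges of miR-200b (0.736% to 1.501%) and miR-141 (0.922% to 3.13%) overlapped. The 5p arm made up 15.5% ± 1.74 of the miR-200a counts, 1.139% ± 0.255 of the miR-200b counts and 1.61% ± 0.771 of the miR-141 counts (SD, n = 6). So miR-200a-5p was more abundant than miR-200b-5p in every library although miR-200b-3p exceeded miR-200a-3p in every library. The miR-200a share was 17.5%, 14.2% and 16.2% in diet-only mice and 14.2%, 17.3% and 13.5% with tofogliflozin. The miR-200b share was 1.26%, 1.21% and 1.07% in diet-only mice and 1.05%, 0.736% and 1.501% with tofogliflozin, lowest in tofogliflozin replicate 2, where the 3p arm was highest. Wilson 95% intervals of single libraries reached at most 0.419 percentage points to either side for miR-200a and 0.0524 for miR-200b. For miR-141 the highest share, 3.13% in tofogliflozin replicate 2, came from 6 of 192 counts and has a Wilson 95% interval of 1.44% to 6.65%, which overlaps those of the other 5 libraries.

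Arm use was tested with limma on the log2 ratio of 5p to 3p counts, in the 74 hairpins whose weaker arm averaged 50 counts or more. The ratio differed by -0.11 ± 0.25 (SE) for miR-200a (adjusted p = 0.949 by limma) and by -0.17 ± 0.30 for miR-200b (adjusted p = 0.949 by limma), tofogliflozin minus diet only. Neither was called, against 0% of the 74 hairpins, and 1 hairpin had an unadjusted p under 0.05. For both hairpins the groups overlapped, where 5.41% of the 74 did not. The miR-200a value was -0.24 without tofogliflozin replicate 2, -0.064 without tofogliflozin replicate 1 and -0.022 without tofogliflozin replicate 3. Leaving out a diet-only mouse gave -0.025 (replicate 1) or -0.20 (replicate 2) at the extremes. The miR-200b value was 0.092 without tofogliflozin replicate 2 and -0.43 without tofogliflozin replicate 3. miR-141, whose weaker arm averaged 12.7 counts, was not tested.

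**Figure D5:**
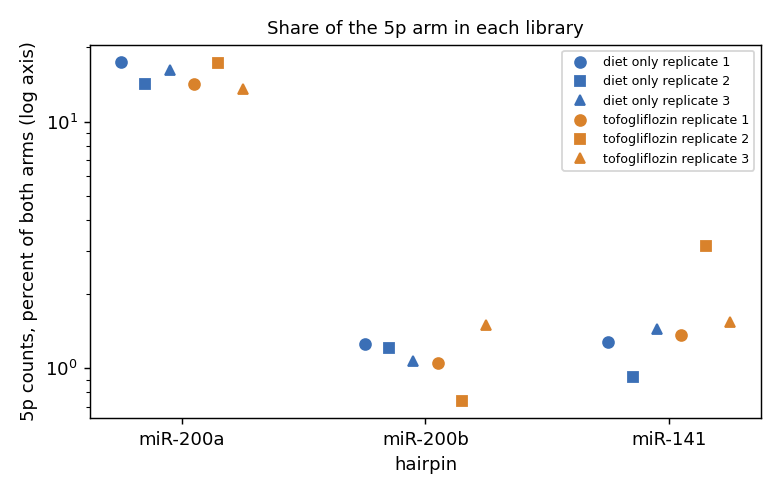
Counts of the 5p arm as a percent of both arms of the miR-200a, miR-200b and miR-141 hairpins in each library, on a log axis; blue symbols are diet-only mice and orange symbols tofogliflozin mice. The miR-200a shares lie between 13.5% and 17.5% and those of miR-200b between 0.736% and 1.501%.

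The miRNAs whose pattern over the 6 libraries was most like that of the summed family were sought among the other 452 tested, by the root mean square difference of log2 CPM after centring each profile on its own mean. The 5 nearest were miR-195a-3p (0.061), miR-30a-5p (0.068), miR-107-3p (0.071), miR-30c-5p (0.077) and miR-30d-5p (0.086), where the median of all 452 was 0.34. miR-30a-5p, for example, was at 18896, 19237 and 21400 CPM in diet-only mice and at 21351, 29767 and 16137 CPM with tofogliflozin. Like miR-200b-3p, which dominates the sum, all 5 were highest in tofogliflozin replicate 2 and lowest in tofogliflozin replicate 3. The summed family had its own extremes in those libraries, so this order largely follows from how the 5 were chosen.

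Other miRNAs of epithelia and of epithelial-mesenchymal transition were read from the same edgeR fit. Of 10 other epithelial miRNAs 8 were tested, 1 with a log2 fold change above 0 and 7 below (226 and 234 of all 460), and the median was -0.12, against -0.005 over all tested. None passed the adjusted p of 0.05, and 2 had an unadjusted p under 0.05, against 5% of all tested. These were miR-183-5p, a miRNA of sensory and other epithelia, at -0.50 ± 0.19 (SE), and miR-203-3p, a miRNA of differentiating epidermis, at -0.53 ± 0.21. miR-203-3p was at 569, 661 and 396 CPM in diet-only mice and at 415, 307 and 407 CPM with tofogliflozin, so the groups overlapped. Of 12 miRNAs described in epithelial-mesenchymal transition all were tested, 8 above 0 and 4 below, with a median of 0.030 and 0 called. miR-203-3p is in this list too, and was the 1 of the 12 with an unadjusted p under 0.05. miR-222-3p, another of them, was at 2356, 2214 and 2780 CPM in diet-only mice and at 3573, 8153 and 1368 CPM with tofogliflozin, again with the highest value in tofogliflozin replicate 2 and the lowest in tofogliflozin replicate 3. Its log2 fold change was 0.83 ± 0.53, with an unadjusted p of 0.152 and an adjusted p of 0.854 by edgeR.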

How the data were processed

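The authors deposited 1 table of raw read counts per library, 2033 rows that pair a precursor with a mature miRNA. Per the labels' protocols, RNA came from a NucleoSpin miRNA kit and libraries from a NEBNext small RNA kit. Per the submitters' processing notes, cutadapt 1.14 and build mm10 were used. The aligner and counting rule were not given in the sources used here. For 75 names with several rows, the largest count per library was taken. The groups were compared in R 4.3.3 by the 2-sided quasi-likelihood test of edgeR 4.0.16 (TMM factors, filterByExpr with a smallest count of 10 and total of 15, Benjamini-Hochberg adjustment, threshold 0.05) over 6 libraries without covariates. The filter left 460 miRNAs. CPM values use TMM-scaled library sizes. Standard errors were derived from the fold change and its F statistic. Arm ratios used limma 3.58.1 with a pseudocount of 1, and ratios and sums exact permutation tests. Likeness used log2 of CPM plus 0.5.

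Members, lists and tests were chosen with earlier results of these data known. Named miRNAs were the 8 members, the other arms of their hairpins, the 5 of nearest profile and up to 2 per list by p. Also named were miR-10a-5p, miR-192-5p and miR-143-3p, as large parts of list sums. The names miR-142a and miR-486a of the lists were matched to miR-142 and miR-486. All 8 members matched RefSeq by name. Mature sequences come from RefSeq, and hairpin positions from GENCODE M21. The design text gives 3 mice per group. p-values measure the spread between these libraries. Alternatives were other size factors, filters, tests (DESeq2 1.42.0, limma-voom, a robust fit), row merging, pseudocounts, the replicate number as a block and each library left out.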

Additional observations from a re-analysis of the deposited data

How the results depend on the processing

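No member was called under any of the 15 alternatives of the edgeR fit, though miR-141-5p did not pass the filter of 10 CPM in 3 libraries. The count of called miRNAs was 10 of 1026 with no low-count filter, 2 with DESeq2 and 0 under the others. Its unadjusted count reached 75 of 476 without tofogliflozin replicate 3, with miR-200b-3p and miR-200c-3p among the 75, against 23 of 460 with all 6 libraries. With each library left out in turn, log2 values ran from -0.15 to 0.46 for miR-200b-3p, 0.12 to 0.47 for miR-200c-3p, -0.18 to -0.036 for miR-200a-3p, -0.17 to -0.11 for miR-429-3p, -0.31 to -0.19 for miR-200a-5p, 0.20 to 0.50 for miR-141-5p, -0.46 to 0.091 for miR-141-3p, -0.091 to 0.031 for miR-200b-5p, -0.24 to -0.022 for the miR-200a arm ratio and -0.43 to 0.092 for the miR-200b arm ratio. They ran from -0.13 to 0.26 for the summed level, -0.26 to -0.11 for the cluster ratio, -0.12 to 0.60 for the seed ratio, -0.13 to 0.59 for its chromosome 4 form, 0.031 to 1.02 for its chromosome 6 form, -0.28 to -0.047 for miR-200b plus miR-429 over miR-200c and -0.12 to 0.38 for miR-200a over miR-141. The end on the other side of 0 came without tofogliflozin replicate 2 for each of these whose sign turned, except miR-200b-5p (without diet-only replicate 1), and the opposite end came without tofogliflozin replicate 3, again except miR-200b-5p (without diet-only replicate 2). miR-200b-5p also turned to 0.011 and 0.0017 without tofogliflozin replicates 1 and 3. The summed level also turned to -0.0004 without diet-only replicate 2, and to -0.022 as a mean of log2 values, which also gave -0.041 for the cluster ratio, -0.30 for its AAUACUG form and 0.13 for the chromosome 4 seed ratio. The cause was not tested.

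Deviations from the group mean gave r = 0.003, -0.14 and -0.17 (across miRNAs) between mice of equal number, and no diet-only library was closest to its own number, so the numbers were not taken as pairs. A fit with the replicate block called 0 miRNAs, with 10 at an unadjusted p under 0.05. The seed ratio was also averaged over the differences between mice of equal number (exact sign-flip permutation p = 0.75). That average equals the unpaired difference of 0.27 by construction. With 3 pairs that test cannot reach a p under 0.05. Low counts limit miR-141-5p (6 to 20 a library) and tofogliflozin replicate 2.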
